A study of Arabidopsis thaliana with 12 samples.

Results

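The salt response of Ws leaves was measured as the difference between Ws plants of Arabidopsis thaliana watered with 100 mM NaCl and Ws plants given 0 mM NaCl. Ws is the usual short name of the accession Wassilewskija. The response rests on 4 of the 12 arrays of the study, 2 with salt and 2 without, and covers every probe set except the manufacturer's controls, 22746 in all. The other 8 arrays hold Col (Columbia) and Col(gl) leaves at the same 2 salt levels. The labels do not say how Col(gl) differs from Col, and they give no transgene or mutation for Ws.

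Plants of all groups stood in soil with dilute Hoagland nutrient solution and were harvested 20 days after sowing. In the salted group, NaCl was dissolved in the same solution from 14 days after sowing and raised by 50 mM every 2 days, so leaves were taken 6 days after salt began. The solution was given from below and also sprayed on the leaves. Both arrays of a group are biological replicates according to the study's design text, and whether an RNA sample pooled several plants is not stated. Values are RMA signals on the log2 scale, so a difference of 1 means a doubling. Signals are compared between arrays for the same probe set and not between genes. In whole leaves, fewer cells of a type and less RNA per cell cannot be told apart.

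Salt reaches leaf cells as a shortage of water and as an excess of sodium and chloride. Plants are known to answer the water shortage through abscisic acid, which switches on protective hydrophilic proteins (dehydrins and other late embryogenesis abundant, LEA, proteins) and proteins made in response to cold and drought. Growth slows, cell walls are remodelled by xyloglucan-modifying enzymes and expansins, and older leaves can enter senescence, in which autophagy recycles cell contents.

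The salted arrays differed from each other more than the unsalted ones. The pooled replicate SD over all probe sets was 0.353 log2 units between the salted Ws arrays and 0.1445 between the unsalted ones, and leaving out the plastid-encoded genes brought the salted value to 0.3415. The median signal of the 69 plastid-encoded genes was 8.73 and 11.22 on salted replicates 1 and 2, against 11.77 and 11.78 on unsalted replicates 1 and 2. The actin control probes at the 3′ end of the transcript exceeded those at the 5′ end by 1.98 and 0.70 with salt, against 0.78 and 0.89 without salt. Salted replicate 1 therefore stood apart in both measures, and named genes whose call ended when it was left out are pointed out below. Array medians in the study lay between 6.15 and 6.38, and lower quartiles between 4.19 and 4.42. A signal at or under that quartile is not shown to be above background, so a difference from it is a lower bound.

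The leaf identity of the RNA was checked with markers that the table names. RCA, the activase of Rubisco, had 13.92 and 14.05 with salt, against 14.01 and 14.06 without salt. It was high on all 4 arrays and did not pass the test. The root hair expansins EXPA7 and EXPA18, the oleosin OLEO3 of seeds and the anther regulator AMS lay between 3.74 and 4.96 on every Ws array. PYK10, a beta-glucosidase abundant in roots, had 6.73 and 3.62 with salt, against 3.51 and 3.65 without salt, and so was raised on salted replicate 1 alone.

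Salt changed 3779 probe sets in Ws leaves (16.6%), of which 2084 were higher with salt (9.16%) and 1695 were lower (7.45%). All 3779 had both salted signals beyond both unsalted ones, whereas 55.6% of all probe sets, called or not, had groups that did not overlap (24.3% higher and 31.3% lower with salt). The change was at least 2-fold in 1042 probe sets (4.58%), with 785 higher (3.45%) and 257 lower (1.13%). The median change over all probe sets was -0.035, and 16474 probe sets (72.4%) went the same way on both salted arrays. Both changes are taken from the same mean of the unsalted arrays, which by itself favours the same direction. Probe sets listed with 1 gene made up 1088 of the higher and 949 of the lower calls, and only these can be named. The test was limma's moderated test in a model of all 12 arrays, two-sided, with Benjamini-Hochberg adjustment and a threshold of 0.05. With only the 4 Ws arrays in the model, 865 probe sets passed (3.8%), 643 higher (2.83%) and 222 lower (0.976%). Without salted replicate 1 the number was 2488 (10.9%), 1562 higher (6.87%) and 926 lower (4.07%).

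**Figure D1:**
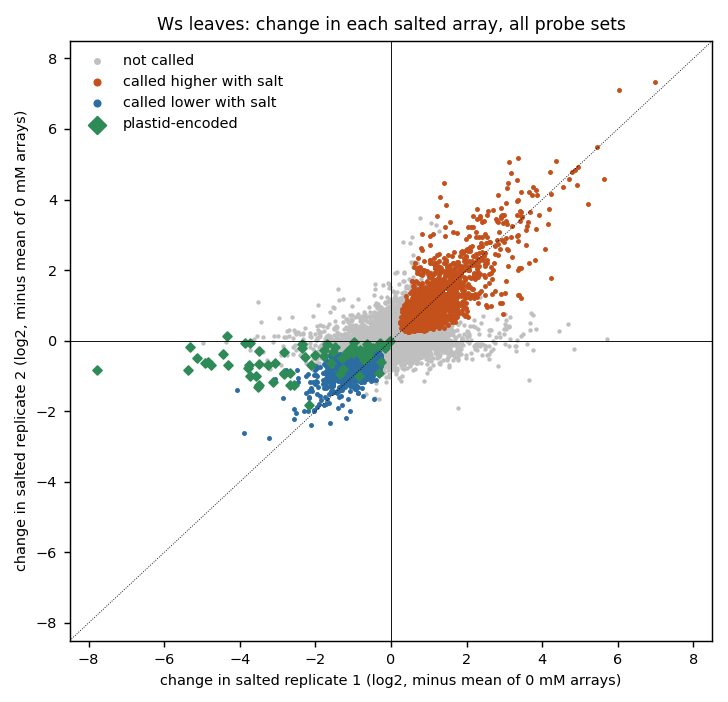
Change with salt in Ws for every probe set, on salted replicate 1 (horizontal axis) and salted replicate 2 (vertical axis), in log2 units relative to the mean of the 0 mM arrays. Orange points were called higher (2084), blue points lower (1695), and green diamonds are the 69 plastid-encoded genes, which lie far to the left because their change was larger on replicate 1; the dotted line marks equal change on both arrays.

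Genes are ordered here by the smaller of their changes on the salted arrays. Only called genes whose salted and unsalted signals did not overlap were ranked, so that separation is a condition of the list. The increase that ranked first was that of AT3G02480, a locus with no symbol in the table, which belongs to the dehydration list used here. Its signal was 10.97 and 11.30 with salt, against 3.90 and 4.07 without salt. The difference was 7.15 ± 0.24 (log2, ± SE, adjusted p = 5.92e-07), and it is a lower bound because both unsalted signals lay under the lower quartile of their arrays. AT1G05340 had 8.92 and 8.90 with salt, against 4.15 and 3.99 without salt, a difference of at least 4.84 ± 0.38. AT1G09500 had 9.23 and 9.09 with salt, against 4.47 and 4.55 without salt, a difference of 4.65 ± 0.43. In each of these genes both salted signals lay close together.

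BSMT1 (AT3G11480), a methyltransferase that makes methyl salicylate and methyl benzoate, had 8.92 and 8.40 with salt, against 4.10 and 3.89 without salt. The difference was at least 4.67 ± 0.54 (adjusted p = 0.000518), with unsalted signals under the lower quartile. XTH19 (AT4G30290), an enzyme that cuts and rejoins xyloglucan in the cell wall, had 9.02 and 9.75 with salt, against 4.60 and 4.75 without salt, a difference of 4.72 ± 0.29. Its close relative XTH18 (AT4G30280) had 8.22 and 8.19 with salt, against 4.75 and 4.86 without salt, a difference of 3.40 ± 0.18. EXLA1 (AT3G45970), an expansin-like wall protein, had 9.70 and 10.28 with salt, against 5.45 and 5.57 without salt, a difference of 4.48 ± 0.21. That none of these genes had salted signals near its unsalted ones follows from the ranking.

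The other 8 of the 15 genes that led the increases were loci without a symbol. AT5G19120 rose by 3.94 ± 0.22, AT4G23680 by 3.83 ± 0.44, AT3G17520 by at least 3.78 ± 0.65 and AT3G15450 by 3.73 ± 0.18. AT3G15630 rose by 3.72 ± 0.26, AT2G37870 by 3.70 ± 0.35, AT1G15010 by 3.55 ± 0.21 and AT4G27450 by 3.49 ± 0.17. All 15 remained called with only the 4 Ws arrays in the model and without salted replicate 1. The widest gap between salted arrays among the 8 was in AT3G17520, at 6.78 and 8.15 with salt, against 3.58 and 3.79 without salt.

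**Figure D2:**
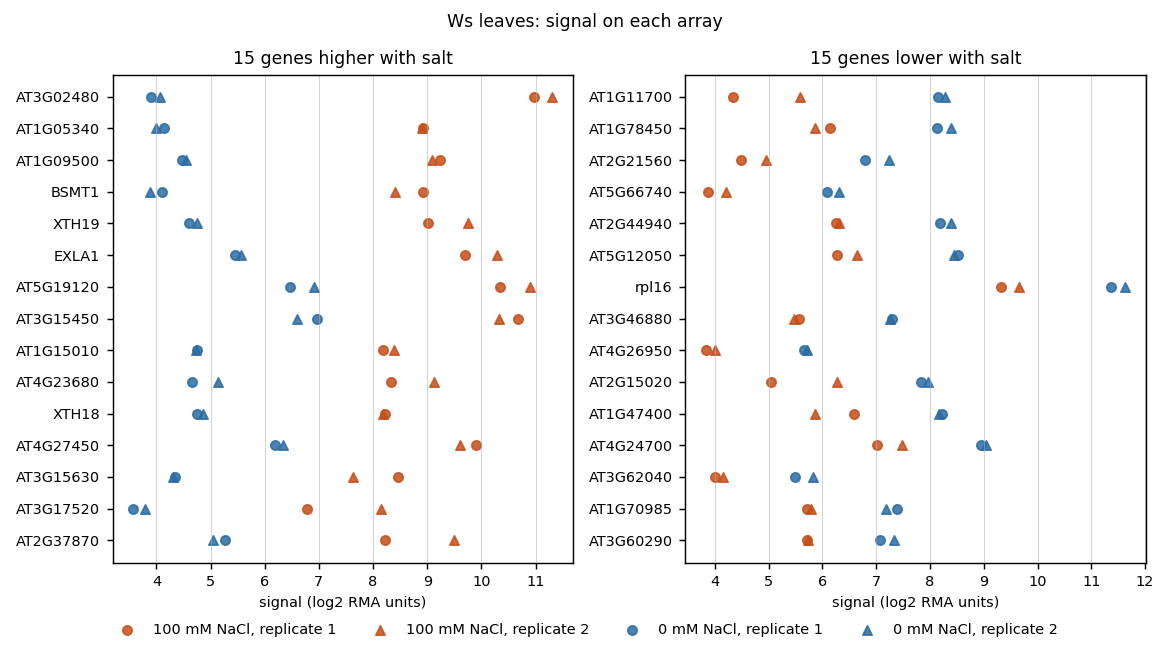
RMA signal (log2 units, horizontal axis) on each of the 4 Ws arrays for the 15 genes ranked first among the increases (left) and the decreases (right); orange is 100 mM NaCl, blue is 0 mM NaCl, circles are replicate 1 and triangles replicate 2. AT3G02480 heads the left panel with 10.97 and 11.30 in salted leaves, against 3.90 and 4.07 in unsalted leaves. In both panels no orange point reaches the blue points of its gene, which the ranking required.

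The 15 decreases that ranked first were smaller than the 15 increases. AT1G11700 had 4.34 and 5.59 with salt, against 8.15 and 8.29 without salt, a difference of -3.25 ± 0.37 (adjusted p = 0.000448). AT2G21560 changed by -2.29 ± 0.21, AT1G78450 by -2.26 ± 0.15, AT2G15020 by -2.23 ± 0.41 and AT5G66740 by -2.16 ± 0.17. AT5G12050, AT2G44940 and AT1G47400 changed by -2.02 ± 0.13, -2.01 ± 0.22 and -1.97 ± 0.44. AT4G26950, AT3G46880, AT4G24700, AT3G62040, AT1G70985 and AT3G60290 changed by between -1.76 and -1.47. Of the 15 genes that led the decreases, rpl16, a plastid-encoded ribosomal protein gene, was the only one with a symbol, and it is described with the plastid genes below. The signals of AT5G66740, AT4G26950 and AT3G62040 were under the lower quartile on both salted arrays, so their decreases are lower bounds. The call of AT2G15020 ended in the model of the 4 Ws arrays (adjusted p = 0.0676).

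Most measured genes of dehydration proteins rose. Of 11 measured members of the list of abscisic acid and dehydration effectors, 7 rose, 1 fell and 3 did not pass the test, whereas 9.16% of all probe sets were called higher and 7.45% lower. The median change was 1.5, or 1.3 on salted replicate 1 and 1.7 on salted replicate 2, beside -0.035 over all probe sets. LEA4-5 (AT5G06760), a LEA protein, had 8.07 and 8.91 with salt, against 4.65 and 5.38 without salt, a difference of 3.47 ± 0.36. LTI30 (AT3G50970), a dehydrin that binds membranes, had 6.71 and 7.55 with salt, against 4.25 and 4.70 without salt, a difference of 2.66 ± 0.32. Salted replicate 2 had the higher signal in both.

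COR47 (AT1G20440), a further dehydrin, had 10.75 and 11.33 with salt, against 8.87 and 8.85 without salt, a difference of 2.18 ± 0.28. COR15B (AT2G42530) and COR15A (AT2G42540), which protect chloroplast membranes, rose by 1.5 ± 0.14 and 1.32 ± 0.18. AT3G02480 and AT3G17520 complete the 7. Both are on the list because earlier results of these arrays had shown them to change, so they add nothing independent to its count or median. The member that fell was named LEA (AT2G21490) and changed by -0.42 ± 0.12, with 3.76 and 3.69 with salt, against 4.21 and 4.07 without salt, all under the lower quartile. Its call ended in 8 of the 10 alternatives that tested it, among them the one without salted replicate 1 (adjusted p = 0.1), and that of COR15A ended with only the 4 Ws arrays (adjusted p = 0.0541). LEA18, HIS1-3 and AtLEA4-1 changed by 0.63, 0.48 and 0.05 and did not pass. Genes of abscisic acid synthesis and perception were not analysed here.

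More cell wall genes were called higher than lower, and the decreases were near their share over all probe sets. Of 46 measured members of the wall remodelling and synthesis list, 12 rose and 3 fell, with a median of 0.0020, beside 9.16% higher and 7.45% lower over all probe sets. With only the 4 Ws arrays in the model, 7 were higher and 1 was lower. Among the xyloglucan enzymes, XTH33 (AT1G10550) had 6.84 and 8.16 with salt, against 5.19 and 5.00 without salt, and XTH16 (AT3G23730) had 8.53 and 6.70 with salt, against 5.71 and 5.58 without salt. They rose by 2.40 ± 0.33 and 1.97 ± 0.49, and EXGT-A3 (AT2G01850), another enzyme of this family, by 0.97 ± 0.28. XTH16 was higher on salted replicate 1 and XTH33 on salted replicate 2. With only the 4 Ws arrays, XTH33, XTH16 and EXGT-A3 were not called (adjusted p = 0.0676, 0.16 and 0.144), and XTH16 was also not called without salted replicate 1 (adjusted p = 0.0577). XTH20, XTH21, XTH26, XTH29 and XTH32 changed by between -0.26 and 0.61 and did not pass.

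EXO (AT4G08950), a wall protein needed for leaf growth, had 9.63 and 10.02 with salt, against 7.34 and 7.16 without salt, a difference of 2.58 ± 0.24. ATPMEPCRB (AT4G02330), a pectin methylesterase, had 9.33 and 9.49 with salt, against 7.02 and 7.01 without salt, a difference of 2.40 ± 0.12. CSLD2 (AT5G16910), a cellulose synthase-like protein known from root hairs, and EXLA2 (AT4G38400), an expansin-like protein, rose by 1.34 ± 0.15 and 1.42 ± 0.18. CSLA03, a mannan synthase-like gene, had 8.4 and 7.92 with salt, against 7.55 and 7.42 without salt, and its increase of 0.68 ± 0.16 was not called with only the 4 Ws arrays or without salted replicate 1. EXO, ATPMEPCRB and CSLD2 had salted signals close to each other. That these did not overlap the unsalted ones held for every called probe set.

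Alpha-expansins, which loosen walls during cell growth, included 2 members that fell and 1 that rose, beside 7.45% and 9.16% of all probe sets. EXPA8 (AT2G40610) had 7.14 and 8.54 with salt, against 9.57 and 9.63 without salt, a difference of -1.76 ± 0.41. EXPA4 (AT2G39700) had 8.54 and 8.72 with salt, against 9.80 and 9.87 without salt, a difference of -1.21 ± 0.11. EXPA16 (AT3G55500) had 6.32 and 7.0 with salt, against 5.45 and 5.54 without salt, a difference of 1.16 ± 0.30. The remaining 7 of 10 alpha-expansins did not pass. PMEPCRF (AT5G53370), a pectin methylesterase, fell by 0.54 ± 0.11. The calls of EXPA8, EXPA16 and PMEPCRF ended in the model of the 4 Ws arrays, at adjusted p = 0.127, 0.0864 and 0.114, and those of EXPA8 and PMEPCRF also without salted replicate 1, at adjusted p = 0.0584 and 0.069.

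**Figure D3:**
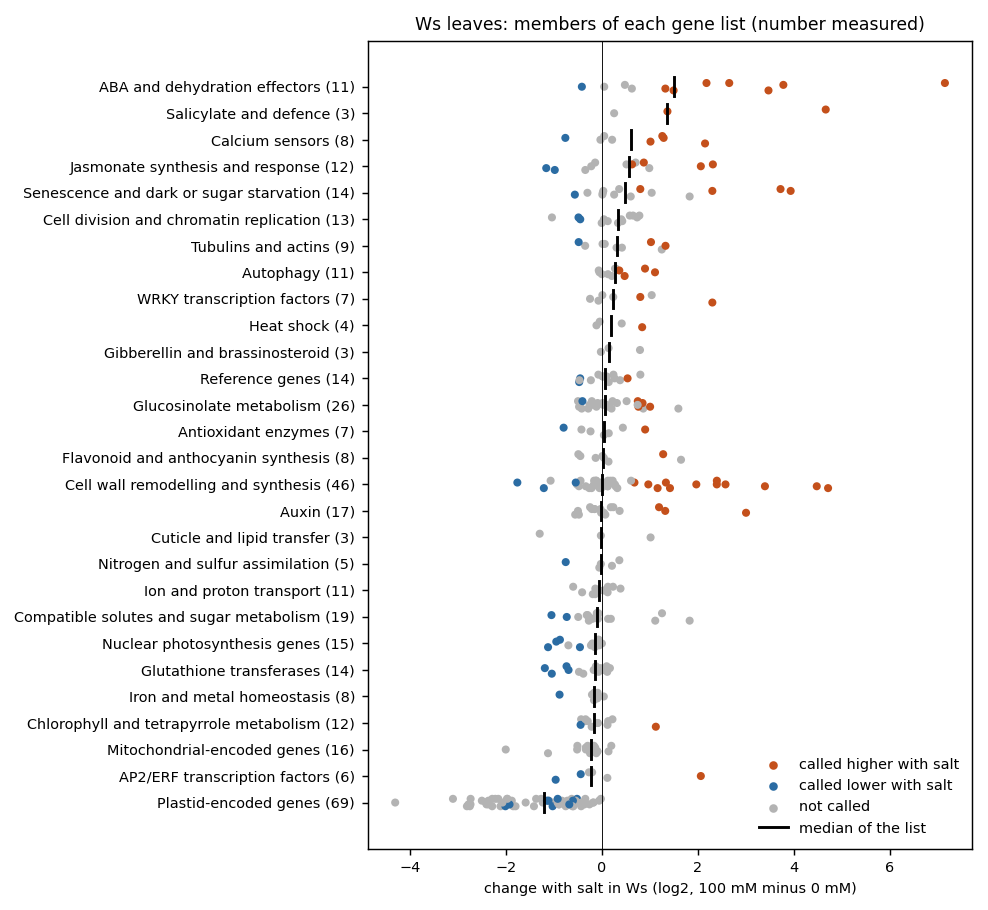
Change with salt in Ws (log2, 100 mM minus 0 mM, horizontal axis) of every measured member of the 28 gene lists with at least 3 members; orange points were called higher, blue lower and grey were not called, and black ticks are list medians. The dehydration list has its median at 1.5 with 7 of 11 members higher, and the plastid-encoded genes at -1.21 with 12 of 69 lower. The dehydration list includes AT3G02480 and AT3G17520, entered because earlier results of these arrays had shown them to change.

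Ion transport and compatible solutes had 0 and 2 calls, where 16.6% of all probe sets were called. None of 11 measured ion and proton transport genes passed limma's test after adjustment, 0 higher and 0 lower, with a median of -0.064, and 3 had an unadjusted p under 0.05. They included the cation exchanger CHX20, a guard cell protein, which changed by -0.60 ± 0.20 (adjusted p = 0.0726), and the vacuolar proton pump subunit VHA-A3, which changed by -0.19 ± 0.23. Of 19 genes for compatible solutes and sugars, 2 fell and 0 rose. ATSPS4F (AT4G10120), a sucrose phosphate synthase, had 9.46 and 9.85 with salt, against 10.66 and 10.74 without salt, a difference of -1.05 ± 0.17. SWEET2 (AT3G14770), a vacuolar sugar transporter, had 8.25 and 8.94 with salt, against 9.34 and 9.31 without salt, and fell by 0.73 ± 0.22. Both calls ended with only the 4 Ws arrays, at adjusted p = 0.0528 and 0.194, and that of SWEET2 also without salted replicate 1 (adjusted p = 0.251). The amylase AMY1 and the sugar transporter SWEET4 changed by 1.25 ± 0.40 and 1.11 ± 0.36. They were not called in the model of all 12 arrays or of the 4 Ws arrays, but were called without salted replicate 1. Other alternatives are not given for them.

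Of 7 antioxidant enzymes, 1 rose and 1 fell, beside 9.16% and 7.45% of all probe sets. CCS (AT1G12520), which hands copper to superoxide dismutase, had 10.12 and 10.42 with salt, against 9.26 and 9.48 without salt, a difference of 0.90 ± 0.13 that was not called with only the 4 Ws arrays (adjusted p = 0.0665). TAPX (AT1G77490), the thylakoid ascorbate peroxidase, had 10.14 and 10.24 with salt, against 10.98 and 10.99 without salt, a difference of -0.80 ± 0.09. The other 5 did not pass. Of 14 glutathione transferases, 4 fell and 0 rose, beside 7.45% of all probe sets lower. GSTF4 (AT1G02950) had 5.09 and 5.18 with salt, against 6.29 and 6.36 without salt, a difference of -1.19 ± 0.10. GSTU23, GSTU18 and GSTL3 fell by 1.04 ± 0.22, 0.73 ± 0.17 and 0.69 ± 0.19. GSTU18 and GSTL3 had 8.28 and 10.72 on salted replicate 1 and 8.88 and 11.42 on salted replicate 2, against 9.30 to 9.32 and 11.71 to 11.82 without salt, and neither was called with only the 4 Ws arrays. Without salted replicate 1 only GSTF4 of the 4 was called.

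Several stress regulators and calcium sensors rose. STZ (AT1G27730), a zinc-finger repressor induced by salt and cold, had 7.37 and 8.47 with salt, against 5.04 and 4.55 without salt, a difference of 3.13 ± 0.33. ORA47 (AT1G74930), an AP2/ERF factor that activates jasmonate synthesis, had 6.50 and 8.39 with salt, against 5.36 and 5.41 without salt, a difference of 2.06 ± 0.47. Both were higher on salted replicate 2, and the call of ORA47 ended with only the 4 Ws arrays (adjusted p = 0.156). Of the other AP2/ERF factors on the list, 3 did not pass and 2 fell, beside 7.45% of all probe sets lower. TINY2 (AT5G11590) fell by 0.96 ± 0.15 and LEP (AT5G13910), a regulator of leaf shape, by 0.44 ± 0.12. Neither decrease was called with only the 4 Ws arrays (adjusted p = 0.0693 and 0.153), and that of LEP ended in 8 of its 11 alternatives, also without salted replicate 1 (adjusted p = 0.0513).

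Of 8 calcium sensors, 4 rose and 1 fell, with a median of 0.62, beside 9.16% higher and 7.45% lower over all probe sets. CML38 (AT1G76650), a calmodulin-like protein, had 7.08 and 6.48 with salt, against 4.55 and 4.70 without salt, a difference of 2.15 ± 0.18. CML41 (AT3G50770) had 5.90 and 5.91 with salt, against 4.44 and 4.85 without salt, a difference of 1.26 ± 0.21. CML23, at locus AT1G66400, and CML37 (AT5G42380) rose by 1.29 ± 0.24 and 1.01 ± 0.18, while CML42 (AT4G20780), known from trichomes, fell by 0.76 ± 0.20. These increases remained called with only the 4 Ws arrays, and the decrease of CML42 did not (adjusted p = 0.195). Unsalted signals of CML37 lay under the lower quartile.

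Auxin genes had 3 of 17 members higher and 0 lower, beside 9.16% and 7.45% of all probe sets. GH3.3 (AT2G23170) and WES1 (AT4G27260, also named GH3.5), which join auxin to amino acids, rose by 3.01 ± 0.40 and 1.32 ± 0.23, and ARL (AT2G44080), a gene of organ growth, by 1.19 ± 0.30. GH3.3 had 7.53 and 9.01 with salt, against 5.37 and 5.16 without salt. With only the 4 Ws arrays these adjusted p-values were 0.0539, 0.0801 and 0.109, and ARL was not called without salted replicate 1 (adjusted p = 0.134). The salicylate list had BSMT1 and GRX480 (AT1G28480), a glutaredoxin of defence signalling, higher among 3 members. GRX480 had 7.39 and 6.62 with salt, against 5.54 and 5.74 without salt, a difference of 1.37 ± 0.33. It was not called with only the 4 Ws arrays (adjusted p = 0.0797) or without salted replicate 1 (adjusted p = 0.111).

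Of 12 members of the jasmonate list, 4 rose and 2 fell, beside 9.16% and 7.45% of all probe sets. The list median was 0.91 on salted replicate 1 but -0.023 on salted replicate 2. The list takes in lectin genes by their JAL symbols, so its count and median are not those of jasmonate genes alone. The lectin gene JAL23 (AT2G39330) had 9.93 and 7.71 with salt, against 6.54 and 6.46 without salt, a difference of 2.31 ± 0.69. OPCL1 (AT1G20510), an enzyme of jasmonate synthesis, and the defensin PDF1.4 (AT1G19610) rose by 0.63 ± 0.15 and 0.88 ± 0.18. The defensin PDF1.2 (AT5G44420), a marker of joint jasmonate and ethylene signalling, had 9.48 and 9.19 with salt, against 10.43 and 10.56 without salt, a difference of -1.16 ± 0.15. PDF1.2b (AT2G26020) fell by 0.98 ± 0.15; its probe set is of a type that can also bind transcripts of near-identical genes, so the pair may not be measured apart. Without salted replicate 1, 1 member was higher, ORA47, and 2 were lower, and with only the 4 Ws arrays PDF1.4 was higher and PDF1.2 lower.

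Senescence and starvation genes included AT3G15450 and AT5G19120. AT3G15450 had 10.68 and 10.33 with salt, against 6.96 and 6.59 without salt, and AT5G19120 had 10.35 and 10.90 with salt, against 6.47 and 6.92 without salt. WRKY53 (AT4G23810), a transcription factor that promotes leaf senescence, had 6.67 and 7.26 with salt, against 4.74 and 4.58 without salt, a difference of 2.30 ± 0.20. WRKY22 (AT4G01250), a factor of defence and dark-induced senescence, rose by 0.80 ± 0.16 but was not called in the model of the 4 Ws arrays (adjusted p = 0.129). In all, 4 of 14 members rose and 1 fell, with a median of 0.48, beside 9.16% and 7.45% of all probe sets. The member that fell, YLS5, changed by -0.56 ± 0.11 and was not called with only the 4 Ws arrays (adjusted p = 0.0921). The sugar transporter SAG29 had 9.43 and 8.42 with salt, against 7.26 and 6.93 without salt, and did not pass (1.83 ± 0.74, adjusted p = 0.127). AT3G15450 and AT5G19120 are on this list because earlier results had shown them to change, so they add nothing independent to its count or median.

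Autophagy genes of the ATG8 family, whose proteins coat the membrane that encloses cell contents, accounted for all 4 calls among 11 autophagy genes. Over all probe sets 9.16% were called higher and 7.45% lower. ATG8E (AT2G45170) had 8.60 and 8.12 with salt, against 7.15 and 7.35 without salt, a difference of 1.11 ± 0.18. The gene listed as ATG8H (AT3G06420) had 7.47 and 7.40 with salt, against 6.71 and 6.36 without salt, a difference of 0.90 ± 0.14. ATG8B and ATG8D rose by 0.48 ± 0.10 and 0.36 ± 0.11. None of the 4 was called with only the 4 Ws arrays, where adjusted p ranged from 0.0623 to 0.189. The change of ATG8D was 0.29 without salted replicate 1, where its call also ended. Unadjusted p under 0.05 was reached by 6871 probe sets in the model of 12 arrays and by 5125 in that of the 4 Ws arrays.

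Of 15 measured nuclear genes of photosynthesis, 4 fell and 0 rose, with a median of -0.15, beside 7.45% of all probe sets lower. LHCB4.3 (AT2G40100), a minor light-harvesting protein, had 11.14 and 11.24 with salt, against 12.26 and 12.36 without salt, a difference of -1.12 ± 0.11. NdhN (AT5G58260) and NdhL (AT1G70760), subunits of the chloroplast NDH complex, fell by 0.95 ± 0.13 and 0.87 ± 0.14, and SBPASE (AT3G55800), an enzyme of the Calvin cycle, by 0.46 ± 0.13. The calls of NdhN and SBPASE ended with only the 4 Ws arrays (adjusted p = 0.0607 and 0.162), and SBPASE was also not called without salted replicate 1 (adjusted p = 0.218). PORB (AT4G27440), which makes chlorophyllide in the light, was the 1 of 12 chlorophyll genes that rose, beside 9.16% of all probe sets. It had 12.22 and 12.06 with salt, against 10.93 and 11.09 without salt, a difference of 1.13 ± 0.10. NOL (AT5G04900), a chlorophyll b reductase, fell by 0.44 ± 0.11 and was not called with only the 4 Ws arrays (adjusted p = 0.164).

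Plastid-encoded genes were lower on both salted arrays in 67 of 69 cases, where 31.3% of all probe sets were lower on both, but by unequal amounts. The list median was -2.02 on salted replicate 1 and -0.44 on salted replicate 2. The gene psaA, for a core protein of photosystem I, had 4.27 and 11.22 with salt, against 12.03 and 12.08 without salt. The gene psbA, for the D1 protein of photosystem II, had 8.46 and 12.27 with salt, against 12.35 and 12.33 without salt. Neither passed the test (adjusted p = 0.265 and 0.38), and their low values belong to replicate 1. In the model of all arrays, 7.45% of all probe sets were called lower and 9.16% higher. Of the 69, 12 were called lower and 0 higher, and without salted replicate 1 only 2 were called.

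Those 2 were rpl16 and rps16, which encode plastid ribosomal proteins, and they are not read as a response of the whole list. The signal of rpl16 was 9.31 and 9.66 with salt, against 11.37 and 11.62 without salt, a difference of -2.01 ± 0.32. That of rps16 was 7.13 and 7.54 with salt, against 8.40 and 8.56 without salt, a difference of -1.14 ± 0.15. Their decrease was therefore of similar size on both arrays. Also called lower in the model of all arrays were rpl14, psbK, psbI, rpoA, rps19, petD, rpl22, psaB, psbJ and petA, by between 0.51 and 1.92. The 3′ to 5′ gap of the actin control, largest on the same salted replicate 1, moved with the low plastid signal, and its part in the result was not tested. None of 16 mitochondrial genes passed limma's test after adjustment and 2 had an unadjusted p under 0.05, with a median of -0.54 on salted replicate 1 and 0.0045 on salted replicate 2.

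**Figure D4:**
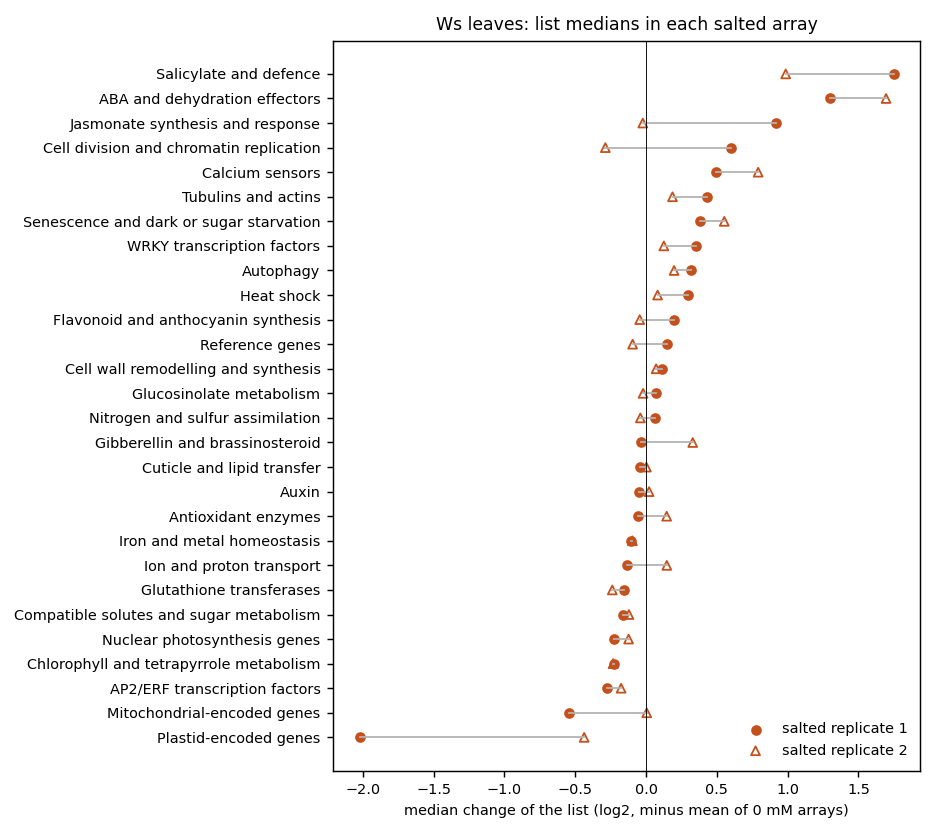
Median change of each gene list (log2 units relative to the mean of the 0 mM arrays, horizontal axis) on salted replicate 1 (filled circles) and salted replicate 2 (open triangles) of Ws. The dehydration list lies at 1.3 and 1.7, whereas the plastid-encoded genes lie at -2.02 and -0.44 and the jasmonate list at 0.91 and -0.023.

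Genes of trichomes, the leaf hairs, were lower with salt in all 3 measured cases, beside 7.45% of all probe sets called lower. TRY (AT5G53200), a repressor of trichome fate, had 6.94 and 7.24 with salt, against 8.38 and 8.60 without salt, a difference of -1.40 ± 0.16. GIS (AT3G58070), which promotes trichome formation, had 6.6 and 7.64 with salt, against 8.23 and 8.26 without salt. It fell by 1.12 ± 0.29, and SIM (AT5G04470), which stops mitosis in trichomes, by 0.49 ± 0.14. Only TRY was called with the 4 Ws arrays alone, and GIS was also not called without salted replicate 1 (adjusted p = 0.108). Of 13 cell division genes, 0 were called higher and 2 lower, beside 9.16% and 7.45% of all probe sets. The kinase AUR2, which acts in mitosis, had 7.21 and 5.00 with salt, against 5.4 and 5.34 without salt. The stomatal lineage factors SPCH and MUTE had 5.63 and 5.75 on salted replicate 1, 3.95 and 4.49 on salted replicate 2, and between 4.13 and 4.60 without salt. None of these 3 passed, and the median of the 13 was 0.60 on salted replicate 1 and -0.29 on salted replicate 2. The 2 called lower were SIM and cdc2cAt (AT5G39420), which fell by 0.45 ± 0.10 with salted signals under the lower quartile. Neither was called with only the 4 Ws arrays (adjusted p = 0.222 and 0.117).

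In the list of glucosinolate metabolism, 4 of 26 members rose and 1 fell, beside 9.16% and 7.45% of all probe sets. All 4 were beta-glucosidases (BGLU25, BGLU45, BGLU42 and BGLU16, by 0.75 to 1.01), a family that fills 20 of the 26 places on the list and also acts outside glucosinolate breakdown. UGT74B1, which glycosylates the glucosinolate precursor, fell by 0.40 ± 0.09. BGLU45, BGLU42 and UGT74B1 were not called with only the 4 Ws arrays, nor BGLU45 and UGT74B1 without salted replicate 1. Of 8 flavonoid genes only 4CL8 rose, with 7.57 and 6.67 with salt, against 5.81 and 5.88 without salt. The difference of 1.28 ± 0.33 was not called with only the 4 Ws arrays (adjusted p = 0.109) or without salted replicate 1 (adjusted p = 0.151). DFR (AT5G42800), an enzyme of anthocyanin synthesis, had 9.74 and 7.08 with salt, against 6.77 and 6.75 without salt, and did not pass (1.65 ± 0.62, adjusted p = 0.104). It was thus high on salted replicate 1 alone.

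Several small lists had few calls, where 9.16% of all probe sets were called higher and 7.45% lower. Their counts are not read as responses of whole lists. Among 9 tubulins and actins, TUB7 (AT2G29550) and ACT11 (AT3G12110) rose by 1.33 ± 0.35 and 1.02 ± 0.20, and TUB5 (AT1G20010) fell by 0.48 ± 0.11. TUB7 had 9.79 and 8.54 with salt, against 7.80 and 7.87 without salt, and was not called without salted replicate 1 (adjusted p = 0.116). Hsp70-2 (AT5G02490), a cytosolic chaperone, was the 1 of 4 heat shock genes called and rose by 0.84 ± 0.12. Of 8 measured members of the iron and metal list only the zinc transporter ZIP6 (AT2G30080) was called, with a change of -0.88 ± 0.16. APS4 (AT5G43780), an enzyme of sulfate activation, fell by 0.75 ± 0.11 and was the 1 of 5 nitrogen and sulfur genes called. The flowering and clock gene GI (AT1G22770) rose by 0.64 ± 0.17. The calls of TUB7, ACT11, TUB5, Hsp70-2, ZIP6, APS4 and GI ended with only the 4 Ws arrays, at adjusted p between 0.0599 and 0.167, and those of TUB5 and GI also without salted replicate 1 (adjusted p = 0.0894 and 0.151). Of 14 reference genes, UBC32 was higher and UBC29 and UBC16 were lower, each by at most 0.54, and none of the 3 was called with only the 4 Ws arrays, nor UBC32 and UBC16 without salted replicate 1. None of 3 gibberellin receptor genes (GID1A, GID1B and GID1C) or 3 cuticle genes passed limma's test after adjustment. An unadjusted p under 0.05 was reached by 0 and 2 of them, and the wax synthase WSD1 passed when salted replicate 1 was left out (adjusted p = 0.00036).

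The same test called 3779 probe sets in Ws, against 8529 in Col (37.5%, with 16.4% higher and 21.1% lower) and 339 in Col(gl) (1.49%, with 0.787% higher and 0.703% lower). Of the 2084 probe sets higher in Ws, 1544 were also higher in Col, which is 74.1% of the Ws and 41.4% of the Col increases, and 57 were lower in Col. Of the 1695 lower in Ws, 1263 were lower in Col (74.5% of the Ws and 26.3% of the Col decreases), and 28 were higher. In Col(gl), 60 of the Ws increases and 39 of the Ws decreases were called in the same direction. Salted Col replicate 1 resembled salted Ws replicate 1, with a plastid-encoded median of 9.48 and an actin 3′ to 5′ gap of 1.65. The unsalted Col(gl) arrays had plastid-encoded medians of 10.34 and 10.35 and gaps of 1.14 and 1.09. The part of these array differences in the overlaps was not tested. The difference of responses itself was called for 1061 probe sets against Col (4.66%) and for 1415 against Col(gl) (6.22%). The difference from Col was positive, meaning a higher change in Ws, for 575 probe sets and negative for 486. That balance turned in other models, with 204 positive and 222 negative with the replicate block and 171 and 215 without unsalted replicate 1.

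The interaction test was passed by 20 of the 97 named genes against Col, beside 4.66% of all probe sets. BSMT1 rose by at least 4.67 ± 0.54 in Ws, against a change of 1.46 in Col (difference 3.20, adjusted p = 0.0486). CML41 rose in Ws, by 1.26 ± 0.21, and fell in Col, by 1.23 ± 0.21. AT1G47400 had 6.59 and 5.87 with salt in Ws, against 8.22 and 8.17 without salt, whereas it changed by 3.70 in Col and by 2.50 in Col(gl). LTI30, EXO, CML38 and WRKY22 rose less in Ws, by 2.66, 2.58, 2.15 and 0.80, against 4.74, 4.12, 3.65 and 3.07 in Col. PDF1.2 fell less in Ws, by 1.16, against 3.73 in Col. The decrease of rpl16 in Ws, by 2.01, stood against a change of 0.89 in Col. The cold and clock gene COR27, at or under the lower quartile on all 4 Ws arrays, changed by 0.085 in Ws and by 3.02 in Col (adjusted p of the difference 0.000683).

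**Figure D5:**
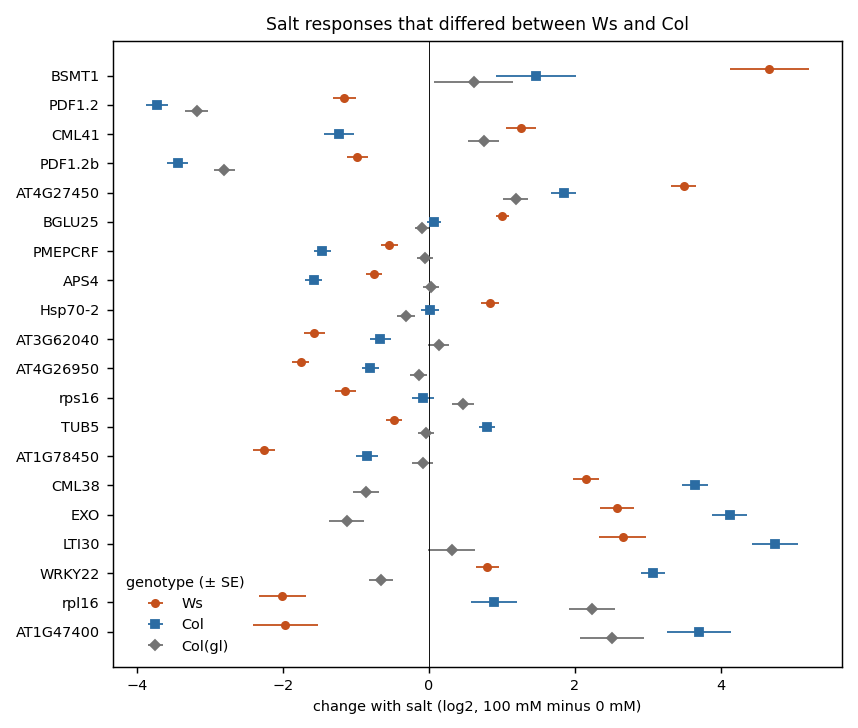
Change with salt (log2, 100 mM minus 0 mM, horizontal axis) in Ws (orange circles), Col (blue squares) and Col(gl) (grey diamonds) for the 20 named genes whose Ws response differed from that of Col, with bars of 1 SE. BSMT1 lies at 4.67 in Ws against 1.46 in Col, and AT1G47400 at -1.97 in Ws against 3.70 in Col.

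Several differences from Col lay in wall genes outside that set. EXPA16 rose in Ws by 1.16 ± 0.30 and changed by -2.03 ± 0.30 in Col (adjusted p of the difference 0.00418). XTH33 rose in Ws by 2.40 ± 0.33 and changed by 0.31 ± 0.33 in Col (adjusted p of the difference 0.0351). ATPMEPCRB rose less in Ws, by 2.40 ± 0.12, against 4.32 ± 0.12 in Col (adjusted p of the difference 0.000564). Of the 97 named genes, which were chosen for their Ws change, 54 differed in response from Col(gl), beside 6.22% of all probe sets. In Col(gl), LEA4-5, LTI30, COR47 and COR15B changed by 0.07, 0.31, -0.04 and 0.02.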

How the data were processed

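Leaf RNA of 12 samples (3 genotypes, 2 salt levels, 2 replicates) was hybridised to Affymetrix arrays. The deposited values are log2 signals that the authors computed with GCOS and RMA, per the submitters' processing notes; versions and settings are not given in the sources used here. Of 22810 probe sets, 64 controls were left out. The platform table gave 1 gene for 13513, several for 503 and no gene for 8730, and 13436 of the first kind were found in RefSeq, so some well-known salt genes are not named here. In lists, a gene with several probe sets was represented by the one with the highest mean signal. Genes were matched to lists by symbol, synonym or locus number, so lists can miss members that have no symbol.

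The values were used as deposited. All 12 arrays entered one limma model (version 3.58.1, R 4.3.3; lmFit, eBayes) with a mean per group, 6 residual and 3.45 prior degrees of freedom. Tests were two-sided, with Benjamini-Hochberg adjustment across the 22746 probe sets tested. Errors are standard errors of log2 differences, and differing responses are interaction contrasts. The errors use 1 spread per probe set shared by the 6 groups, so they are equal in Ws, Col and Col(gl). Pooled replicate SD was 0.353 in salted Ws and 0.1369 to 0.2971 in the other groups. Errors and p-values of Ws changes can therefore be too small. The code was tested on simulated data. Named genes were the first 15 called 1-gene probe sets in each direction, by the smaller change on the salted arrays, and up to 4 per list and direction; other named genes were chosen after their values were seen. Members and lists were chosen with earlier results of these data known, and list entries whose symbol belongs to an unrelated gene were removed after values were seen. Alternatives were the 4 Ws arrays alone, Ws with Col, a block for replicate number, quantile renormalization, leaving out the lowest 25% of signals, an intensity trend, leaving out organelle genes, and leaving out each Ws array. Promoter motifs were not analysed here. Replicate numbers carry no stated pairing, and deviations of same-numbered Ws arrays correlated at 0.0402. Figures used matplotlib 3.10.9.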

Additional observations from a re-analysis of the deposited data

Results flagged for a closer look

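Salt responses that differed between genotypes, by the interaction test of limma with adjusted p under 0.05 and 2 arrays per group, are listed here as Ws response minus the other genotype's response on the log2 scale, among the 97 named genes. In 20 of them the Ws response differed from that of Col, beside 4.66% of all probe sets. The named genes were chosen for their Ws change, so a larger share among them is partly built in. Genes with opposite directions were AT1G47400 (-5.67; -1.97 in Ws and 3.70 in Col), CML41 (2.49; 1.26 in Ws and -1.23 in Col), TUB5 (-1.28; -0.48 in Ws and 0.80 in Col) and rpl16 (-2.90; -2.01 in Ws and 0.89 in Col). The change of rpl16 in Col includes a salted replicate 1 array with low plastid-encoded signal, and its part in the difference was not tested.

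Genes that rose in Ws and had a larger value there than in Col were BSMT1 at 3.20, AT4G27450 at 1.64, BGLU25 at 0.94 and Hsp70-2 at 0.83. BGLU25 changed by 0.07 and Hsp70-2 by 0.01 in Col. Genes that rose in Ws by less than in Col were WRKY22 at -2.27, LTI30 at -2.09, EXO at -1.55 and CML38 at -1.49.

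Genes that fell in Ws by less than in Col were PDF1.2 at 2.57, PDF1.2b at 2.46, PMEPCRF at 0.92 and APS4 at 0.83. Genes that fell in Ws by more than in Col were AT1G78450 at -1.41, rps16 at -1.06, AT4G26950 at -0.95 and AT3G62040 at -0.90. Salted Ws signals of AT4G26950 and AT3G62040 were under the lower quartile of their arrays.

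Against Col(gl), 54 of the 97 named genes differed in response, beside 6.22% of all probe sets. Among all 3779 probe sets called in Ws, 1201 differed from Col(gl) and 501 from Col. Selection by the Ws change favours such differences.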

How the results depend on the processing

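Of the 97 named genes, 46 kept their call in every alternative that tested them. None turned direction in any of the 11, but only quantile renormalization could have turned one. The other alternatives kept the fitted difference or left out 1 array from groups that, by the choice of genes, did not overlap. The count of 3779 called probe sets was 865 with only the 4 Ws arrays, 2186 with only Ws and Col, and 2512 with a replicate block within genotype, and between 1567 and 5902 when 1 Ws array was left out. It was lowest without unsalted replicate 1, 1874 without unsalted replicate 2, 2488 without salted replicate 1 and highest without salted replicate 2. The count of 1042 at least 2-fold changes was 653 with only the 4 Ws arrays and between 831 and 2033 with 1 array left out. Counts of differing responses, 1061 against Col and 1415 against Col(gl), were 426 (204 positive, 222 negative) and 700 with the replicate block, and 386 to 2169 and 682 to 3551 with 1 Ws array left out. The count against Col was 265 with only the Ws and Col arrays. With 1 array left out, the single array remaining in that group borrowed its spread from the others. Quantile renormalization gave 3984 calls, 46.8% of them higher with salt, against 55.1% as deposited. Among named genes, 47 lost their call with only the 4 Ws arrays, 25 without salted replicate 1, 7 without salted replicate 2, 35 and 31 without unsalted replicates 1 and 2, 27 with Ws and Col, 18 with the replicate block, 5 with an intensity trend and 4 after quantile renormalization. The causes were not tested, and the fit on 4 arrays has 2 residual degrees of freedom. That fit and the one without salted replicate 1 were applied to the lists after the data were seen. Signals at or under the lower quartile limit what can be said of low genes.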

Other observations

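Gene groups outside the lists were formed from symbol stems shared by at least 8 measured genes, with 1 group added by name, after values had been seen, so their counts describe these arrays only. Subunits of nuclear RNA polymerases, the enzymes that transcribe ribosomal, messenger and transfer RNA genes, rose in 5 of 12 cases and fell in 0, beside 9.16% and 7.45% of all probe sets. With only the 4 Ws arrays 3 were called. NRPA1 (AT3G57660) and NRPA2 (AT1G29940), the large subunits of polymerase I, rose by 1.38 ± 0.17 and 1.29 ± 0.20, and NRPC1 (AT5G60040) and NRPC2 (AT5G45140), those of polymerase III, by 0.98 ± 0.21 and 0.93 ± 0.19. NRPA1 had 7.85 and 7.72 with salt, against 6.31 and 6.50 without salt. Of 14 bZIP transcription factors 4 rose and 0 fell, beside 9.16% and 7.45% of all probe sets, and 1 was called with only the 4 Ws arrays. The largest change was that of BZIP53 (AT3G62420), a factor of starvation and seed gene control, which had 10.30 and 10.23 with salt, against 8.48 and 8.83 without salt (1.61 ± 0.13).

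Of 26 cytochrome P450 genes 7 fell and 0 rose, beside 7.45% and 9.16% of all probe sets, 5 of them CYP71B members (CYP71B5, CYP71B36, CYP71B34, CYP71B35 and CYP71B29), by 0.61 to 1.32. None of the 7 was called with only the 4 Ws arrays, where the lowest adjusted p was 0.0519. ALDH7B4 (AT1G54100), an aldehyde dehydrogenase induced by drought, had 11.32 and 11.90 with salt, against 9.44 and 9.54 without salt, and rose by 2.12 ± 0.23. The tetraspanin TET8 (AT2G23810), a protein of secreted vesicles, had 10.41 and 10.30 with salt, against 8.58 and 8.40 without salt, and rose by 1.86 ± 0.11. Of 8 subtilisin-like proteases 3 rose, beside 9.16% of all probe sets, and 1 of them was called with only the 4 Ws arrays. ATSBT5.2 (AT1G20160) rose by 1.03 ± 0.11 in Ws and changed by 0.0072 in Col, and that difference passed the interaction test (adjusted p = 0.00852).

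Strong Ws increases that differed from Col included the chitinase CHI (AT2G43570), with 8.14 and 9.13 with salt, against 5.65 and 5.24 without salt. It rose by 3.19 ± 0.33 in Ws and changed by -0.80 in Col (adjusted p of the difference 0.00246). AT5G05600 rose by 3.18 ± 0.17 in Ws and changed by 0.43 in Col (adjusted p of the difference 0.000556). JRG21 (AT3G55970), an oxygenase that inactivates jasmonate, rose by 3.14 ± 0.24 in Ws, against 1.54 in Col (adjusted p of the difference 0.0325). MYC4 (AT4G17880), a factor of jasmonate signalling, fell by 1.45 ± 0.18.

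Named genes whose salted arrays lay farthest apart included the peptidase gene scpl31, at 7.02 and 3.72 with salt, against 3.48 and 3.66 without salt, and the cellulase gene GH9B13, at 8.42 and 5.15 with salt, against 5.54 and 5.05 without salt. The SUMO ligase SIZ1 went the other way on one of its probe sets, with 4.43 and 7.94 with salt, against 7.77 and 7.88 without salt, while another probe set of the gene had 8.60 and 8.80 with salt, against 8.87 and 9.0 without salt. The histone gene HTB11 differed between the unsalted arrays, with 4.92 and 5.07 with salt, against 4.23 and 7.84 without salt.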
